A study of Zea mays with 9 samples.

Results

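The ZmbZIP17 peak list is the set of genomic intervals in which chromatin pulled down with a GFP fusion of ZmbZIP17 gave more sequencing tags than chromatin from the GFP vector control. All 282 intervals that the authors listed for this pull-down were taken, out of 3324 in the peak lists of the series. The other 3042 belong to ZmbZIP60. Maize bZIP17 is a basic leucine zipper transcription factor. In Arabidopsis, bZIP17 sits in the membrane of the endoplasmic reticulum (ER), moves to the Golgi under ER stress or salt stress, and is cut there so that its DNA-binding part reaches the nucleus. It is known for raising the transcription of chaperone genes and other genes of the unfolded protein response, the program by which a cell restores protein folding in the ER.

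Chromatin came from leaf protoplasts of B73, the inbred line of the maize reference genome. Per the labels, the GFP-ZmbZIP17C group holds 3 libraries of protoplasts given the GFP fusion, and the vector control group holds 3 libraries of protoplasts given GFP alone. Another label field calls the fusion GFP-bZIP91. The labels do not explain the final C. Both groups carry the same treatment, tunicamycin at 5 mg per ml in DMSO given to seedlings that had germinated for 2 days at 30 °C and grown for 7 days at 23 °C, so the list says nothing of unstressed cells. Tunicamycin blocks N-glycosylation and thereby causes ER stress. The factor was introduced by transformation and pulled down through its GFP tag, so binding of the factor made from the plant's own gene was not measured. GFP alone was pulled down with the same antibody in the control. The promoter that drove the fusion is not given in the sources used here.

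Libraries were merged by group before peaks were called, so every value below describes a single merged pull-down against a single merged control. There is no spread between replicates, no replicate check and no test, and intervals cover counting error only. Intervals over peaks treat peaks as independent. Many peaks share a locus, so these intervals can be too narrow. The merged pull-down held 126318506 tags and the merged control 47193255 after removal of tags at used positions, which took out 41% and 9% of tags. A tag is a mapped read extended to 200 bp. The pull-down was 2.68 times as deep as the control and was scaled down by the factor 0.374. The mean over the genome is 3.50 tags over 200 bp on this scale for both. The pileup, fold enrichment and −log10 q of each peak are the authors' own. The control level is recovered from the pileup and the fold. It can be a mean over a window wider than 200 bp. The number of pull-down tags at a summit is the pileup with the scaling undone. It was whole within 0.02 for all 282 peaks.

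The ZmbZIP17 intervals covered little of the genome. They came to 139512 bp in all, or 0.00666% of the 2095894296 bp between the chromosome starts and the last positions listed in either peak list. These last positions stand for chromosome ends below, since chromosome lengths of the assembly were not used here. All peaks lay on the 10 chromosomes. Of the 2101 windows of 1 Mb, 89 held a summit, and 55 of these held a single summit. The fullest 7 windows held at least 50% of the list. The window from 115 Mb on chromosome 4 held 37 peaks, the window from 79 Mb on chromosome 2 held 31, and the window from 160 Mb on chromosome 4 held 26.

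The chromosomes differed in how many peaks they held and in how those peaks were grouped. Chromosome 4 held 72 peaks, chromosome 9 held 54, chromosome 2 held 42 and chromosome 3 held 38. Chromosome 1, the longest by listed extent, held 26. Chromosomes 6, 7, 5 and 10 held 17, 12, 10 and 8. Chromosome 8 held 3, at 108952471 to 108952672, at 112881885 to 112882084 and at 162230364 to 162230565. Per 100 Mb of listed extent, the density ranged from 1.67 peaks on chromosome 8 to 33.9 on chromosome 9, with 29.2 on chromosome 4.

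Joining peaks less than 10 kb apart into loci narrowed these differences but did not remove them. The list then held 105 loci, whose density per 100 Mb still ranged from 1.67 on chromosome 8 to 10.7 on chromosome 9. Chromosome 9 had the most, 17 (16.2%, 95% exact interval 9.72 to 24.7), on 7.61% of the listed extent. Chromosome 3 had 16 loci, chromosomes 1 and 4 had 13 each, and chromosome 2 had 11. Chromosome 4 held 25.5% of the peaks but 12.4% of the loci (interval 6.76 to 20.2), close to its 11.8% of the extent. Chromosome 9 was the only chromosome whose interval for loci lay above its share of the extent, and chromosome 8 the only one whose interval lay below it, with 3 of 105 loci (interval 0.593 to 8.12) on 8.59%. These intervals treat loci as independent and were not adjusted for the 10 chromosomes. A locus on chromosome 4 held a mean of 5.54 peaks, on chromosome 2 a mean of 3.82 and on chromosome 9 a mean of 3.18, against 1.11 on chromosome 5 and 1 on chromosome 8.

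**Figure D1:**
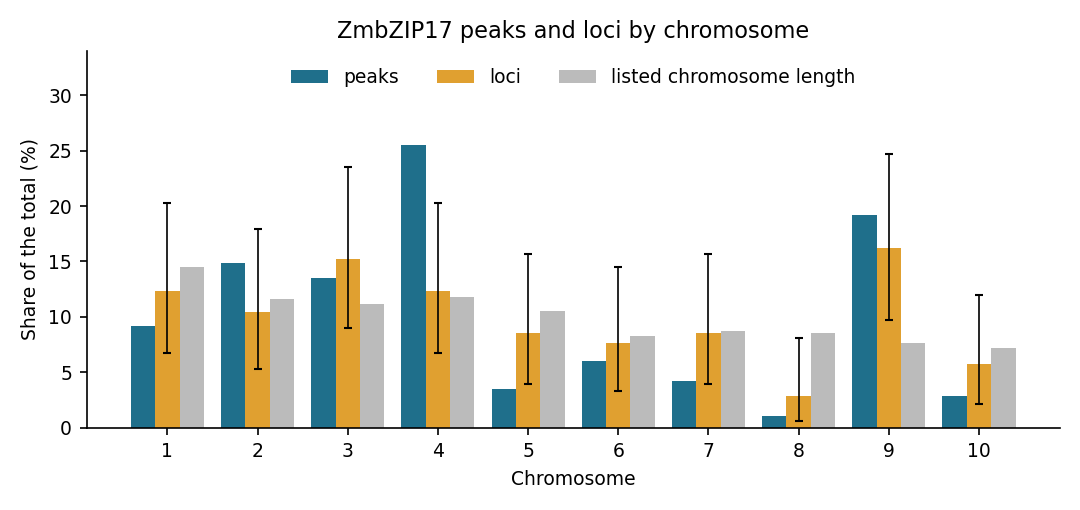
Share of the 282 ZmbZIP17 peaks (blue), of the 105 loci (orange, with exact 95% intervals) and of the listed chromosome length (grey) on each chromosome, in percent. Chromosome 4 stands out in peaks, with 25.5%, and not in loci, with 12.4%, while chromosome 9 is above its share of length in both.

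Long parts of several chromosomes held no ZmbZIP17 peak. The longest such stretch, 129.8 Mb, lay on chromosome 2 between the summits at 79977018 and 209804612. On chromosome 8 the first summit was at 108952529, on chromosome 4 at 92911005, on chromosome 10 at 90385050 and on chromosome 6 at 53500975, so the start of each of these chromosomes up to that point was empty of peaks. On chromosome 1, by contrast, the first summit was at 366773, and on chromosome 2 at 470918. The empty 92.9 Mb of chromosome 4 lay on the chromosome with most peaks.

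Along the chromosomes, most peaks lay in the central part, and both ends held peaks and loci too. Of the 282 summits, 188 (66.7%, interval 60.8 to 72.1) fell between 0.25 and 0.75 of the listed length. Counted as loci it was 63 of 105 (60%, interval 49.98 to 69.4), and for loci with a single peak 40 of 66 (60.6%). In the ZmbZIP60 list, 630 of 1749 loci on chromosomes lay in the same part (36.0%, interval 33.8 to 38.3). This difference was not tested, and both calls share the control. The ZmbZIP60 pull-down held 18726110 tags after filtering, against 126318506 for ZmbZIP17. Cut into 10 equal parts from start to end, the chromosomes held 68 ZmbZIP17 peaks in the fourth part, 45 in the fifth and 45 in the seventh. By locus the fifth part held 10 and the seventh 16. Single stretches gave many of these peaks. Chromosome 2 from 79823393 to 79977161 held 31 of those in the fourth part. Chromosome 4 held 37 of those in the fifth from 115211868 to 115350237. It also held 26 of those in the seventh, from 160255619 to 160316742. The first part held 38 peaks in 8 loci, and the last held 28 peaks in 19 loci. The last part therefore held as many loci as the fourth, which had 19 too, with fewer peaks to each.

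The distances between neighbouring ZmbZIP17 summits fell into 2 ranges with little between them. Of the 272 neighbouring pairs, 130 were under 2000 bp apart and 177 (65.1%) under 10000 bp. Between intervals, 14 gaps were of 10 to 100 kb and 4 of 100 kb to 1 Mb. In all, 195 pairs of summits were under 1 Mb apart, and the others were farther apart. No gap between intervals was of 7.5 to 10 kb, so the number of loci is the same for any joining distance in that range. Within loci the median spacing of summits was 1298 bp (exact interval of the median 1177 to 1463, n = 177). Between loci the median gap was 10602505 bp (n = 95).

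**Figure D2:**
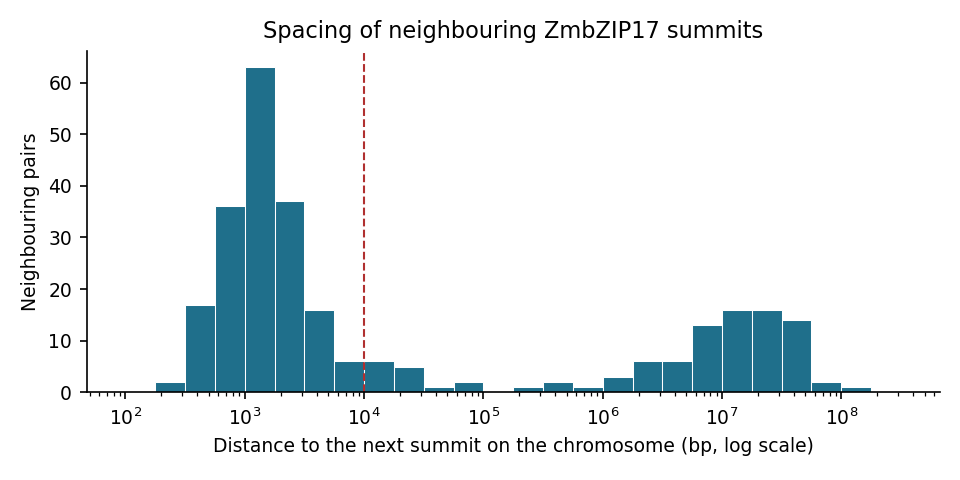
Distance from each ZmbZIP17 summit to the next on the same chromosome (272 neighbouring pairs), in bp on a log scale. Bars count pairs, and the dashed line marks 10000 bp; 177 pairs lie below it, and 195 below 1 Mb, so few pairs lie in between.

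The 105 loci ranged from a single interval to 23 peaks. Single peaks made up 66 loci, 26 loci held 2 to 4 peaks, 7 held 5 to 9, and 6 held 10 or more. These last 6 loci held 112 peaks (39.7%). The 13 loci with 5 or more peaks held 155 peaks, or 55.0% of the list (interval 48.9 to 60.9). This interval treats peaks as independent, though all peaks of a locus share its size. With peaks joined only under 1 kb, such loci held 26.95%. In the ZmbZIP60 list on chromosomes, loci of that size held 517 of 2489 peaks (20.8%). That difference was not tested, and the ZmbZIP60 pull-down held 18726110 tags after filtering, against 126318506.

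The loci with most peaks mostly spread over wide stretches without filling them. The chromosome 2 locus at 79934090 to 79977161 spanned 43072 bp, of which its 23 peaks covered 21.4%. Its summits were 368 to 6166 bp apart, with a median of 1446 bp. The 23 peaks of the chromosome 4 locus at 160279382 to 160316742 were longer, with a median of 570 bp, and covered 47.8% of 37361 bp. The 20 peaks of the chromosome 9 locus at 6516464 to 6554870 covered 33.7% of 38407 bp. The 14 peaks of the chromosome 4 locus at 115256189 to 115287183 covered 15.2% of 30995 bp, the lowest share of the 6. The 10 peaks of the chromosome 3 locus at 26960125 to 26977828 had a median length of 1106 bp and covered 83.4% of its 17704 bp, with gaps of 200 to 489 bp. The chromosome 4 locus of 23 peaks held a run of the same kind. From 160295377 to 160309400, 9 peaks of 570 to 2976 bp covered 86.3% of 14024 bp, with gaps of 158 to 293 bp. The other run of 5 or more peaks with gaps under 500 bp lay on chromosome 3 at 81488181 to 81494311, where 5 peaks covered 78.9% of 6131 bp. The limit of 500 bp was chosen after the values were seen.

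These 6 loci also differed in signal. The chromosome 9 locus had the highest levels, with median levels of 310 pull-down tags and 68.9 control tags, where the fold had a median of 1.65. The chromosome 2 locus had medians of 266 pull-down tags and 53.0 control tags and a fold of 2.02, and the chromosome 3 locus 262 and 47.1 with a fold of 1.97. The locus from 160279382 on chromosome 4 had 278 and 52.0 with a fold of 1.82. The other 2 chromosome 4 loci, from 115256189 and 115311046, had lower levels and higher folds. They had medians of 212 and 189 pull-down tags over 27 and 28 control tags, and median folds of 2.70 and 2.56. Within the locus from 115311046 the pileup still ranged from 49.7 to 102.7 and the fold from 1.85 to 3.65.

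**Figure D3:**
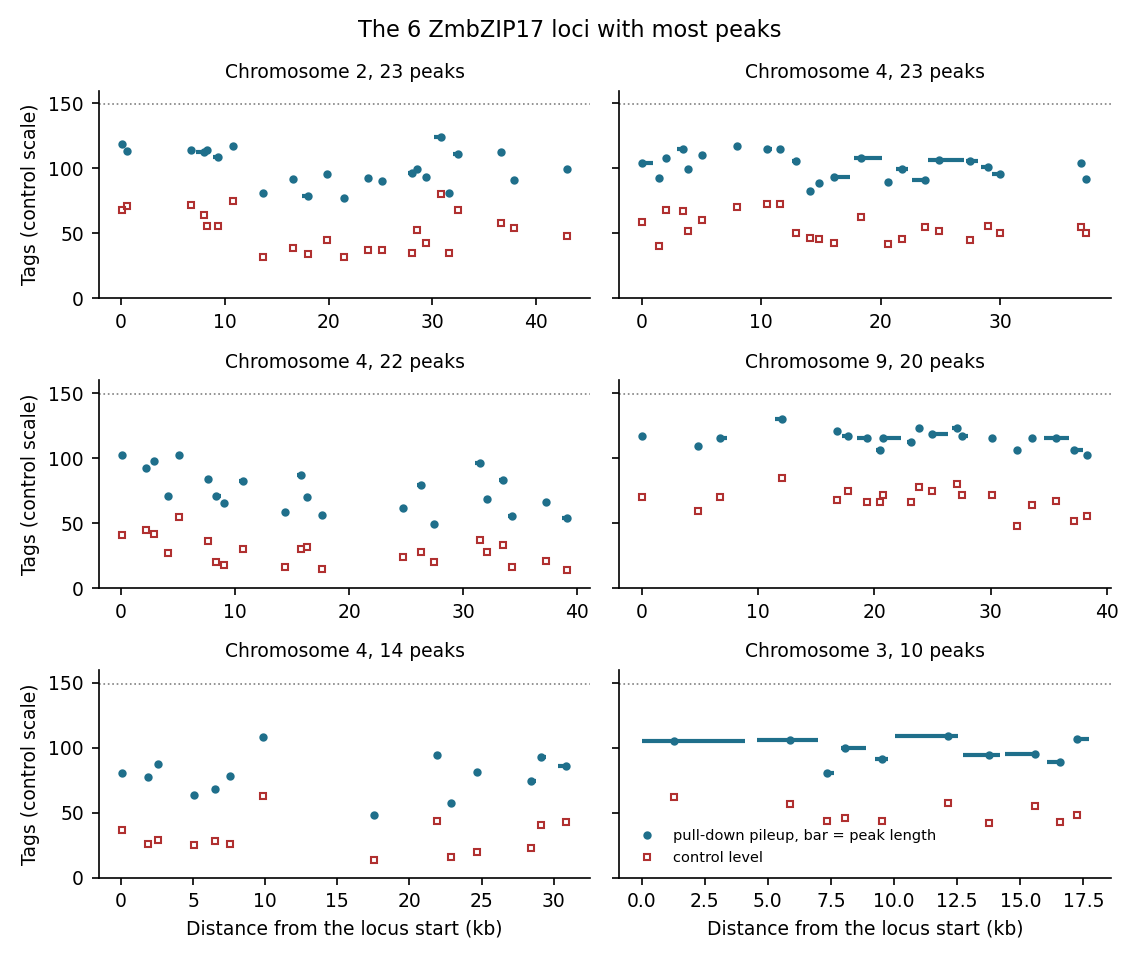
Pileup of the pull-down (blue, with a bar as long as the peak) and control level (red squares) at each summit of the 6 ZmbZIP17 loci with most peaks, in tags on the scale of the control, against the distance from the locus start in kb. The dotted line is the highest possible pileup, 149.4; long bars with small gaps fill the chromosome 3 locus and the middle of the chromosome 4 locus of 23 peaks, and in the loci of 22 and 14 peaks on chromosome 4 both levels are lower.

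Several of these loci had further ZmbZIP17 peaks nearby. With 100 kb as the joining distance, the chromosome 4 loci from 115256189 and 115311046, whose gap was 23862 bp, joined a single peak to form 37 peaks over 138.4 kb. The chromosome 2 locus joined 3 smaller loci to form 31 peaks over 153.8 kb. On chromosome 9, 5 loci between 61923315 and 61993348 held 7 peaks over 70.0 kb, and the loci from 90533356 and 90557603 held 7 peaks over 26.2 kb. Outside chromosomes 2, 4 and 9, this joined only a pair of single peaks on chromosome 1, which together ran from 133149980 to 133239133.

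The next loci by number of peaks lay on chromosomes 3, 1, 2 and 6. The locus at 81482791 to 81494311 on chromosome 3 held 8 peaks over 11521 bp. Its median control level was 64.5 tags and its median fold 1.74. The locus at 25986449 to 25994314 on chromosome 1 also held 8, over 7866 bp, with a median fold of 1.85. The locus at 79871276 to 79875613 on chromosome 2 held 6 peaks with a median fold of 2.12, and the locus at 54010811 to 54017346 on chromosome 6 held 6 with a median fold of 1.87. Chromosomes 5, 7, 8 and 10 had no locus of more than 2 peaks. Where they had loci of 2 peaks, the first of these was at 200545960 to 200547909 on chromosome 5, at 13647123 to 13649719 on chromosome 7 and at 96937746 to 96939475 on chromosome 10. Chromosome 8 had single peaks alone.

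Neighbours within a locus differed by a median of 0.228 in fold (n = 177) and of 7.84 in pileup. The largest differences between neighbours were 1.59 in fold and 60.2 in pileup. Peaks of different loci were not compared in this way.

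The ZmbZIP17 peaks were mostly short. Their median length was 334.5 bp (exact interval of the median 304 to 370), with quartiles of 255 and 568 bp. The shortest possible length in this calling is the 200 bp of an extended tag, and 17 peaks were within 10 bp of it. Under 300 bp were 119 peaks, and 24 peaks reached 1000 bp. The ZmbZIP60 peaks on chromosomes had a median of 316 bp.

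The median length was higher over the peaks of the larger loci, but not in each of these loci. The median was 297.5 bp for peaks that were alone (interval 265 to 347), 302 bp in loci of 2 to 4 peaks, 361 bp in loci of 5 to 9 and 405.5 bp in loci of 10 or more (interval 352 to 485). Of these 6 loci, the chromosome 2 locus had a median of 299 bp and the chromosome 4 locus of 14 peaks one of 265 bp, near or below that of peaks that were alone. All 24 peaks of 1000 bp or more overlapped a ZmbZIP60 peak, against 221 of 282 over the list (78.4%). A long interval has more room to share 1 bp, and the share was 68.1% under 300 bp, 80.2% from there to under 600 bp and 95.2% at 600 bp or more. The longest peak, 4109 bp at 26960125 to 26964233 on chromosome 3, belonged to the chromosome 3 locus of 10 peaks, as did those of 2499 and 2416 bp. The second longest, 2976 bp at 160303340 to 160306315, lay in the chromosome 4 locus of 23 peaks, and the fifth, of 2397 bp, was at 81490505 to 81492901 on chromosome 3. The folds of these 5 peaks were between 1.69 and 2.04. Exactly 200 bp were the peaks at 25989318 on chromosome 1, 126502095 on chromosome 3, 115278979 on chromosome 4 and 112881885 on chromosome 8, with folds of 1.88, 3.18, 3.47 and 3.72. Next came 3 peaks of 202 bp, at 79874268 on chromosome 2 and at 108952471 and 162230364 on chromosome 8, with folds of 2.06, 4.01 and 2.02.

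The summit, the position of highest signal, was near the middle more often in short peaks than in long ones. It lay between 0.4 and 0.6 of the peak's length in 95 of 282 peaks (33.7%). In peaks under 300 bp this share was 57 of 119 (47.9%, interval 38.7 to 57.2), in peaks of at least 300 and under 600 bp 27 of 101 (26.7%), and in peaks of 600 bp or more 11 of 62 (17.7%, interval 9.20 to 29.5). From the summit to the nearer edge the median was 90, 122 and 146 bp in these classes. Such a distance lies nearer the middle in a shorter peak. Of the peaks of 600 bp or more, 18 of 62 (29.0%) had the summit in the outermost 0.1 of the length at either end. The list shows no clear side. In 146 of 282 peaks the summit was in the first part, before 0.5, and the median relative position was 0.491 (interval 0.468 to 0.517). In 19 peaks the summit was within 20 bp of an edge. The chromosome 2 peak with the highest pileup of its chromosome, at 79964218 to 79964953, was among these, with its summit 4 bp from the end. A list with 1 summit to a peak cannot show whether long peaks hold several maxima.

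**Figure D4:**
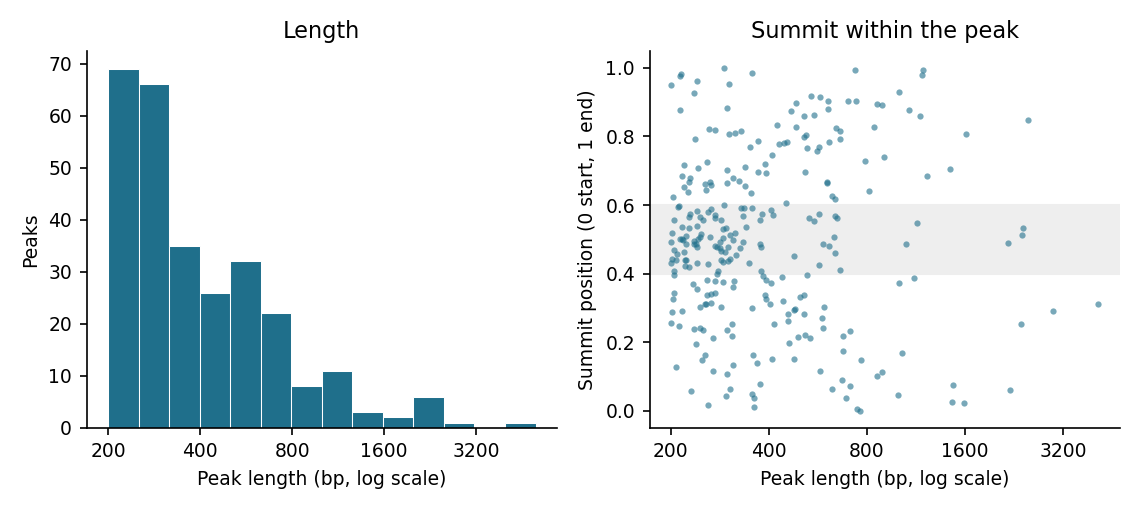
Left, number of ZmbZIP17 peaks by length in bp (log scale). Right, relative position of the summit (0 is the start of the peak and 1 its end) against length for the 282 peaks, with the range 0.4 to 0.6 shaded. Of the peaks under 300 bp, 57 of 119 lie in the shaded range, and long peaks scatter over the whole range.

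The pull-down signal at the summits was mostly high, with a tail of low values. The median was 259.5 tags (interval 251 to 266), with quartiles of 209 and 291. Since a single tag is kept per position and strand, 400 tags is the highest possible number over a position, and the median peak filled 64.9% of it. On the deposited scale 202 of 282 peaks (71.6%) had a pileup of 80 to 120, while 28 peaks had one under 30 and 19 had one of 30 to 60. The control level at the 282 summits was high too, with a median of 48 tags against a mean of 3.50 over the genome. The lowest pileup, 17.2, stood for 46 tags (95% Poisson interval 33.7 to 61.4) at chromosome 6, 129032472 to 129032841. The highest, 130.0, stood for 348 tags (interval 312 to 387) at chromosome 9, 6527964 to 6528570.

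The pileup of a ZmbZIP17 peak followed the control level at the same place. Across the 282 peaks the rank correlation of pileup and control level was 0.949, and over the medians of the 105 loci it was 0.967. These correlations describe the list. The call admits a peak only above a fold that depends on the control level, and neighbouring peaks share their region. The fold ran the other way, with a rank correlation of -0.960 with the control level. The control level is in the denominator of the fold, so a negative value is in part built in. At under 10 control tags, 30 peaks had folds of 2.60 to 4.61, with a median of 3.72. At 40 to 60 control tags, 102 peaks had folds of 1.65 to 2.47, with a median of 1.98. At 60 or more, 79 peaks had folds of 1.52 to 1.85, with a median of 1.64. At the highest control level in the list, 85 tags, the limit of 400 tags allows a fold of at most 1.75. At 52 control tags, the median of the peaks with 20 or more, it allows 2.84. Folds at different control levels are therefore not on equal terms.

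**Figure D5:**
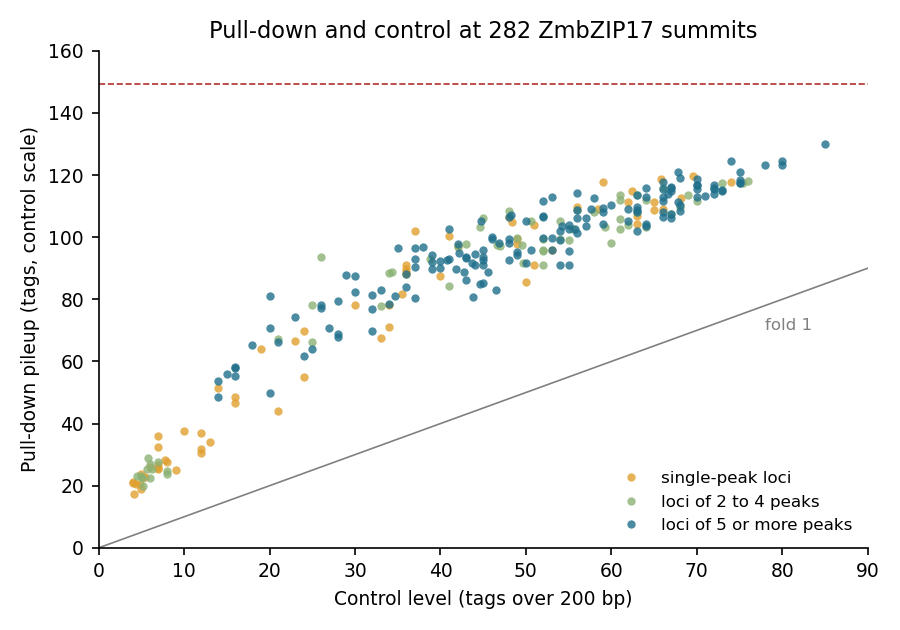
Pileup of the pull-down against control level at the 282 ZmbZIP17 summits, both in tags on the scale of the control, coloured by the number of peaks in the locus. The grey line marks equal levels, a fold of 1, and the dashed line the highest possible pileup of 149.4; all peaks lie above the grey line, and the distance to the dashed line shrinks as the control level rises.

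On each chromosome the peak with the highest pileup and the peak with the highest fold were different regions. The highest pileups were at chromosome 2, 79964218, and chromosome 6, 54015938, with 333 tags each, after the chromosome 9 peak. They were followed by chromosome 3, 74902003, with 324 tags, chromosome 7, 68939316, with 318, and chromosome 4, 160287320, with 313. Chromosome 1, 286107169, had 304 tags, equal to its neighbour at 286107739. Chromosome 5, 194279332, had 292 and chromosome 10, 121716612, had 291. The Poisson intervals of these 9 peaks overlap. Such intervals take no account of the limit on tags over a position, which these peaks come near, so they can be too wide. Their overlap therefore does not decide the order of the 9 peaks, which was not tested. Chromosome 8 was lower, with 181 tags (interval 156 to 209) at 162230364, outside all of the other intervals. Their folds ran from 1.52 to 2.02. All 10 overlapped a ZmbZIP60 peak, close to the 215 of 236 (91.1%) among peaks with 20 or more control tags, to which all of them belong.

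The peaks with the highest fold of their chromosome had few control tags. On 9 of the 10 chromosomes they had 4 to 7 control tags, and on chromosome 9 the peak had 16.0. The chromosome 1 peak at 163878602 to 163878884, which leads the list, had 96 tags (interval 77.8 to 117) over 7 control tags. Chromosome 2, 76365855, had 57 tags over 4 and a fold of 4.46. Chromosome 10, 96937746, had 62 over 4.44 and a fold of 4.44, and chromosome 4, 242136910, had 77 over 5.78 and a fold of 4.39. Next came chromosome 3, 213212586, with a fold of 4.15, chromosome 8, 108952471, with 4.01, and chromosome 7, 13649308, with 3.99. The lowest of the 10 were chromosome 6, 129032472, with 3.57, chromosome 5, 84632229, with 3.30, and chromosome 9, 45480252, with 2.81. An overlap with ZmbZIP60 was found for 1 of the 10, on chromosome 1, close to the share of 6 in 46 among peaks with under 20 control tags, to which all of them belong.

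Peaks at under 20 control tags differed from the rest in chromosome and grouping, and hardly in position along the chromosome. They numbered 46 and were found on all 10 chromosomes, with 9 each on chromosomes 1, 3 and 4. On chromosome 10 they were 6 of 8 peaks and on chromosome 8, 2 of 3, while on chromosome 9 they were 1 of 54. Alone in their locus were 27 of 46 (58.7%, interval 43.2 to 73.0), against 39 of 236 (16.5%, interval 12.0 to 21.9) of the peaks with 20 or more. Counted by locus the shares lay closer, since a few loci hold many of the 236 peaks. Of the 35 loci with a low-control peak 27 were single (77.1%, interval 59.9 to 89.6), and of the other 70 loci 39 (55.7%, interval 43.3 to 67.6). The median length of the 46 peaks was 277.5 bp, against 355 bp for the other 236, and 1 of the 46 reached 600 bp. Of the 46, 6 overlapped a ZmbZIP60 peak, against 215 of 236. These differences were not tested.

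The other 19 low-control peaks were of 2 kinds. The chromosome 4 loci from 115256189 and 115311046 held 7 of them among peaks of higher control level. The other 12 formed 6 pairs in which both peaks were low, a grouping noticed after the values were seen. The pairs lay on chromosome 3 from 49663706 and from 173460044, on chromosome 4 from 242136204, on chromosome 7 from 13647123, and on chromosome 10 from 96937746 and from 98385565. Their summits were 539 to 2475 bp apart. On chromosome 10 the first pair had 62 tags at each peak (interval 47.5 to 79.5), with folds of 4.44 and 4.03. The second pair had 74 and 64 tags, with overlapping intervals of 58.1 to 92.9 and 49.3 to 81.7. On chromosome 3 the pair from 49663706 had 68 and 60 tags, and that from 173460044 had 68 and 53. In all 6 pairs the counting intervals of the partners overlapped, but so did those of any 2 of the 12 peaks, which had 53 to 77 tags. This overlap therefore does not show that partners match more closely than other peaks of the group. None of the 12 peaks overlapped a ZmbZIP60 peak. All 12 had under 10 control tags, and of the 30 such peaks in the list only 2 overlapped one.

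The most isolated ZmbZIP17 peaks lay on chromosomes 8, 6 and 5. The peak at 162230364 on chromosome 8 was 49.3 Mb from its nearest neighbour and had 181 tags and a fold of 2.02. The peak at 168217632 on chromosome 6 was 39.2 Mb from the next, with 262 tags and a fold of 1.98. On chromosome 5, the peak at 84632229 was 27.8 Mb from the next, with a fold of 3.30, and those at 31727443 and 56792906 were 25.1 Mb apart, with folds of 1.64 and 2.05. The peak at 56792906 was weakly supported, with a −log10 q of 1.36, near the lowest of the list. The 5 peaks had control levels from 7 to 63 tags.

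By significance the list reached down to the threshold of the call. The median −log10 q was 3.96, the lowest 1.32 and the highest 15.2. Of the 282 peaks, 234 had a −log10 q of at least 2 and 192 one of at least 3. Overlap with ZmbZIP60 peaks, by at least 1 bp, was found for 221 of 282 peaks, and differed with the size of the locus. Where summits had to lie within 100 bp of each other, the share fell from 78.4% to 40.1%. By locus size, an overlap of 1 bp was found for 38 of 66 single peaks (57.6%), 46 of 61 peaks in loci of 2 to 4 (75.4%), 41 of 43 in loci of 5 to 9 (95.3%) and 96 of 112 in the largest loci (85.7%). The median control level moved with these classes, from 33.5 tags at single peaks to 49.6, 54.2 and 47.2 in the larger ones, and so did the median length given above. The part of either in the overlap was not tested. The genes and DNA sequences at these positions were not analysed here.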

How the data were processed

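Per the labels' protocols, chromatin of maize leaf protoplasts was pulled down with a GFP antibody and sequenced over 150 cycles. Reads passed through Trimmomatic 0.36 and BWA, and peaks through MACS2 and bedtools, as far as the submitters' processing notes name tools; how they were set is not stated, except for MACS2. Per the file headers, MACS2 (2.1.0.20150420) called peaks on merged libraries with no fragment model, tags extended to 200 bp, q below 0.05 as the cutoff, a mappable genome of 2.7 Gb and 1 tag kept per position and strand. Keeping 1 tag bounds the pileup, and scaling the deeper pull-down down sets its unit. The deposited pileup is a signal, the deposited fold a ratio with 1 added to both sides, and the deposited −log10 p and −log10 q are those of MACS2. The deposited score, a rescaled −log10 q, entered no result. All 282 ZmbZIP17 peaks agreed in position, fold and q between the 3 files of the list. Contig names in the ZmbZIP60 list are of version 4 of the B73 assembly, and coordinates are 1-based on it.

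Loci, spacings, shares with exact (Clopper-Pearson) 95% intervals, exact order-statistic intervals of medians and exact Poisson intervals of tags were computed with Python 3.11.15, numpy 2.4.6, pandas 2.3.3 and scipy 1.17.1. Figures were drawn with matplotlib 3.10.9. Overlaps were checked with bedtools 2.31.1. The joining of loci was tested on 90 simulated peaks and recovered 18 of 18 planted loci. Peaks named are, on each chromosome, those of highest pileup and highest fold and the locus with most peaks, and over the list the 5 longest, 5 shortest and 5 most isolated peaks and the 10 loci with most peaks. The 3 peaks of chromosome 8 and the low-control pairs are named besides. The members, the limit of 20 control tags and the locus distance of 10 kb were chosen with earlier results of these data known.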

Additional observations from a re-analysis of the deposited data

How the results depend on the processing

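No paired analysis was possible because peaks were called on merged libraries, and for the same reason no replicate could be left out. Of 43 other settings over 9 results, 28 kept the value within the 95% interval of the reported one, or, for the number of loci, within 1.5 times. Joining peaks under 1 kb gave 161 loci and put 26.95% of peaks into loci of 5 or more. The chromosome 4 share was 12.4% by locus and 7.22% without the 5 loci with most peaks. At a −log10 q of at least 3, the share of peaks in loci of 5 or more was 45.3%, the share of summits at 0.4 to 0.6 was 41.1%, the median pileup was 93.2 and the median spacing of neighbouring summits was 3619 bp, against 2171 bp for all peaks. With a median per locus, the summit share was 45.7%, which averaging within loci raises by construction, the pileup 90.8 and the share at 0.25 to 0.75 of the chromosome 60%. That last share was 58.9% without the 5 loci with most peaks, and 44.3% for the narrower range 0.33 to 0.67. Spacing measured between intervals was 1577 bp. With summits within 100 bp required, 40.1% of ZmbZIP17 peaks met a ZmbZIP60 peak, against 78.4%.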
